A study of Mus musculus with 24 samples.

Results

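Scn3a, Gap43, Galnt15 and Lgi2 are 4 of the 17097 mouse genes that the arrays measured by a probe set naming 1 gene. They were chosen on measured values: a large difference between the EGR2 hairpins and the non-targeting hairpin on the control diet, which the palmitic acid-rich (PA-rich) diet reversed. Scn3a, Gap43 and Galnt15 had higher levels with both EGR2 hairpins on the control diet and Lgi2 had a lower level. The mean of the EGR2 hairpins lay within 0.5 of the non-targeting hairpin on the PA-rich diet for all 4. Because these contrasts chose the genes, their values in them are a description and were given no test. The tests concern the diet effect with the other hairpins, the hairpin against GAL and the difference between the EGR2 hairpins. Most of them share arrays with the choice.

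Messenger RNA was read with mouse arrays in a part of the tumour stroma labelled as its neural fraction. The tumours were orthotopic xenografts of the human oral squamous carcinoma line SCC25 in immunodeficient NSG (NOD-SCIDγ) mice. The human tumour cells carried the non-targeting hairpin PLKO, 1 of 2 hairpins against EGR2 (shEGR2_40.9 or shEGR2_38.9), or shGAL against GAL, and the mice ate a control diet or the PA-rich diet. Each hairpin and diet was measured on 3 arrays, which made 8 groups and 24 arrays. The series calls the 3 arrays of a group technical replicates, and no source used here says how many animals they came from, so p-values measure only the spread between arrays. Silencing was in the human cells, whereas the probe sets name mouse genes. The values are therefore read as mouse RNA and not as the silenced genes. Whether RNA of the human tumour cells added to any value was not tested. Levels are log2 values after robust multi-array averaging (RMA), where a difference of 1 is a 2-fold difference.

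Scn3a encodes a pore-forming alpha subunit of the voltage-gated sodium channels, which carry the rising phase of the action potential; it is abundant in the embryonic nervous system and returns in sensory neurons after nerve injury. Gap43 encodes a membrane phosphoprotein of growth cones and regenerating axons, also made by Schwann cells that have lost contact with axons. Galnt15 encodes a member of the polypeptide N-acetylgalactosaminyltransferase family, enzymes that attach the first sugar of mucin-type O-linked chains in the Golgi. Lgi2 encodes a secreted leucine-rich repeat protein of a family that binds ADAM receptors at synapses and on axons. EGR2, a zinc finger transcription factor, drives the myelin program of Schwann cells, and galanin, the product of GAL, is a neuropeptide.

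RefSeq promoter windows were matched for 2 of the 4 genes, Lgi2 and Galnt15, and not for Scn3a and Gap43. Both matched windows are shown, of the lowest and the highest gene in the contrast that chose the set. Each covers the 250 bases before the annotated start in build GRCm38.p6, read 5′ to 3′ along the gene, in lower case with GC boxes in capitals. Both strands were searched for the letters GCGTGGGCG and GCGGGGGCG, forms of the EGR family recognition sequence, and for the GC box GGGCGG, which reads CCGCCC on the opposite strand. The Lgi2 window lies at chr5:52566307-52566556 on the minus strand and the Galnt15 window at chr14:32028853-32029102 on the plus strand.
Lgi2: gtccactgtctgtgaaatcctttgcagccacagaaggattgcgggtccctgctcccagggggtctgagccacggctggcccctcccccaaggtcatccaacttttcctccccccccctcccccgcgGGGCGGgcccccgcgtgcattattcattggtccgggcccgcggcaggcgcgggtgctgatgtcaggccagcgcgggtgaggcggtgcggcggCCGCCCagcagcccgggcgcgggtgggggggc
Galnt15: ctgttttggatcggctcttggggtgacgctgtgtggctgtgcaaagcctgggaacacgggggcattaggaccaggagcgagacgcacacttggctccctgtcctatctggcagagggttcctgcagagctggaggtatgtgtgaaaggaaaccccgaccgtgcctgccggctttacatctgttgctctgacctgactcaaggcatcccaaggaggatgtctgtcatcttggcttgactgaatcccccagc
The Lgi2 window was 72.4% G or C with 21 CpG dinucleotides, and the Galnt15 window 57.6% with 8, against medians of 52.4% and 6 over 32851 promoter windows of the same length. The Lgi2 window held 2 GC boxes, from -124 to -119 on the gene's strand and from -32 to -27 on the other, counted from the start. The Galnt15 window held none, and 32.7% of all windows held at least 1. Neither window held the EGR letters, which 3.06% of all windows held.

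The array carried 7 probe sets that name only 1 of these genes, and the one with the highest mean stood for each gene. Gap43 had 1 probe set and each of the others had 2. A probe set with a mean under 6.27, the 40th percentile of all probe sets, was called dim, and 5 of the 7 passed. The second Scn3a probe set, 1421705_PM_at, lay between 4.97 and 5.36 on all 24 arrays, and the second Galnt15 probe set, 1429235_PM_at, between 5.38 and 6. Both were dim on every array, whereas both Lgi2 probe sets were above that level on every array. The Scn3a probe set used, 1439204_PM_at, was above it on 10 of 24 arrays and so passed through the groups where it was high.

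On the control diet Scn3a read 8.71, 8.09 and 7.95 with shEGR2_40.9 and 9.58, 9.57 and 9.18 with shEGR2_38.9. With PLKO it read 5.77, 6.45 and 5.77, and with shGAL 5.71, 5.46 and 6.04. All 6 arrays of the EGR2 hairpins thus lay above all arrays of the other hairpins. On the PA-rich diet Scn3a read 5.86, 5.6 and 5.53 with shEGR2_40.9, inside the range of the PLKO arrays over both diets, and 6.46, 6.72 and 6.48 with shEGR2_38.9. PLKO then gave 5.72, 5.51 and 5.6 and shGAL 5.98, 5.24 and 5.48, so that shEGR2_38.9 was highest on this diet too. Of the PLKO control-diet arrays, 2 of 3 lay under the dim level, so the difference has only a lower bound. With such arrays set to 6.27, the EGR2 hairpins were at least 5.72-fold higher (measured means 8.85 and 6). The measured difference was 2.85, and 0.5 on the PA-rich diet. The diet difference was measured as -2.59 with shEGR2_40.9, where 3 of 3 PA-rich arrays were dim and the control diet was at least 3.94-fold higher. It was -2.89 with shEGR2_38.9, the lowest of all 11844 genes kept. The second Scn3a probe set, the one annotated to a RefSeq transcript, gave 0.08 for the EGR2 hairpins minus PLKO. The difference thus stood on 1 probe set, which is annotated to an expressed sequence tag.

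Gap43 read 10.19, 9.47 and 9.62 with shEGR2_40.9 and 10.7, 10.71 and 10.57 with shEGR2_38.9 on the control diet. It read 8.7, 8.49 and 8.2 with PLKO and 8.19, 8.54 and 8.78 with shGAL. The EGR2 hairpins again did not overlap the other hairpins. On the PA-rich diet the 2 EGR2 hairpins parted around PLKO. Gap43 was 7.88, 7.94 and 7.98 with shEGR2_40.9, below every other array, and 8.98, 9.22 and 8.96 with shEGR2_38.9, above every array of PLKO (8.51, 8.32 and 8.56) and of shGAL (8.57, 8.18 and 8.48). Their mean therefore differed from PLKO by only 0.03 on the PA-rich diet, against 1.75 on the control diet, a 3.36-fold difference. The diet difference was -1.83 with shEGR2_40.9 and -1.61 with shEGR2_38.9.

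Galnt15 read 10.03, 9.83 and 10.02 with shEGR2_40.9 and 10.13, 10.32 and 9.84 with shEGR2_38.9 on the control diet. It read 7.09, 7.61 and 6.39 with PLKO and 7.31, 7.43 and 8.17 with shGAL, where the arrays of 1 group lay further apart than for the other genes. No array outside the EGR2 hairpins on the control diet exceeded 8.34. On the PA-rich diet Galnt15 was 7.91, 8.19 and 7.81 with shEGR2_40.9, 6.98, 7.91 and 7.76 with shEGR2_38.9, 7.48, 7.29 and 7.67 with PLKO and 8.34, 7.81 and 7.27 with shGAL. The arrays of shEGR2_40.9 all lay above those of PLKO there (difference 0.49), and every other pair of these groups overlapped. The EGR2 hairpins exceeded PLKO by 3.00 on the control diet, a 7.98-fold difference, and by 0.28 on the PA-rich diet. The diet difference was -1.99 with shEGR2_40.9 and -2.55 with shEGR2_38.9. On the control diet the dim second probe set read 5.97, 5.68 and 5.7 with shEGR2_40.9, 5.76, 6 and 5.92 with shEGR2_38.9 and 5.45, 5.65 and 5.38 with PLKO. These did not overlap either, with a difference of 0.34.

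Lgi2 had the opposite pattern. On the control diet it read 6.71, 6.93 and 7.03 with shEGR2_40.9 and 6.77, 6.73 and 7.11 with shEGR2_38.9, below every other array. With PLKO it read 8.76, 8.24 and 8.46, and with shGAL 7.51, 7.82 and 7.81, between the others without overlap. On the PA-rich diet the 4 hairpins gave 8.26, 8.12 and 8.31 (shEGR2_40.9), 8.12, 8.13 and 8.55 (shEGR2_38.9), 7.67, 8.08 and 7.99 (PLKO) and 8.06, 8.37 and 8.09 (shGAL). The arrays of the EGR2 hairpins were then all above those of PLKO. The EGR2 hairpins minus PLKO gave -1.61 on the control diet, a 3.05-fold lower level and the lowest of the 11844 genes, and 0.33 on the PA-rich diet. The diet difference was 1.34 with shEGR2_40.9, the highest of all genes, and 1.4 with shEGR2_38.9. The second probe set, 1457040_PM_at, gave -0.61 for the EGR2 hairpins minus PLKO and diet differences of 0.84 and 1.02.

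**Figure D1:**
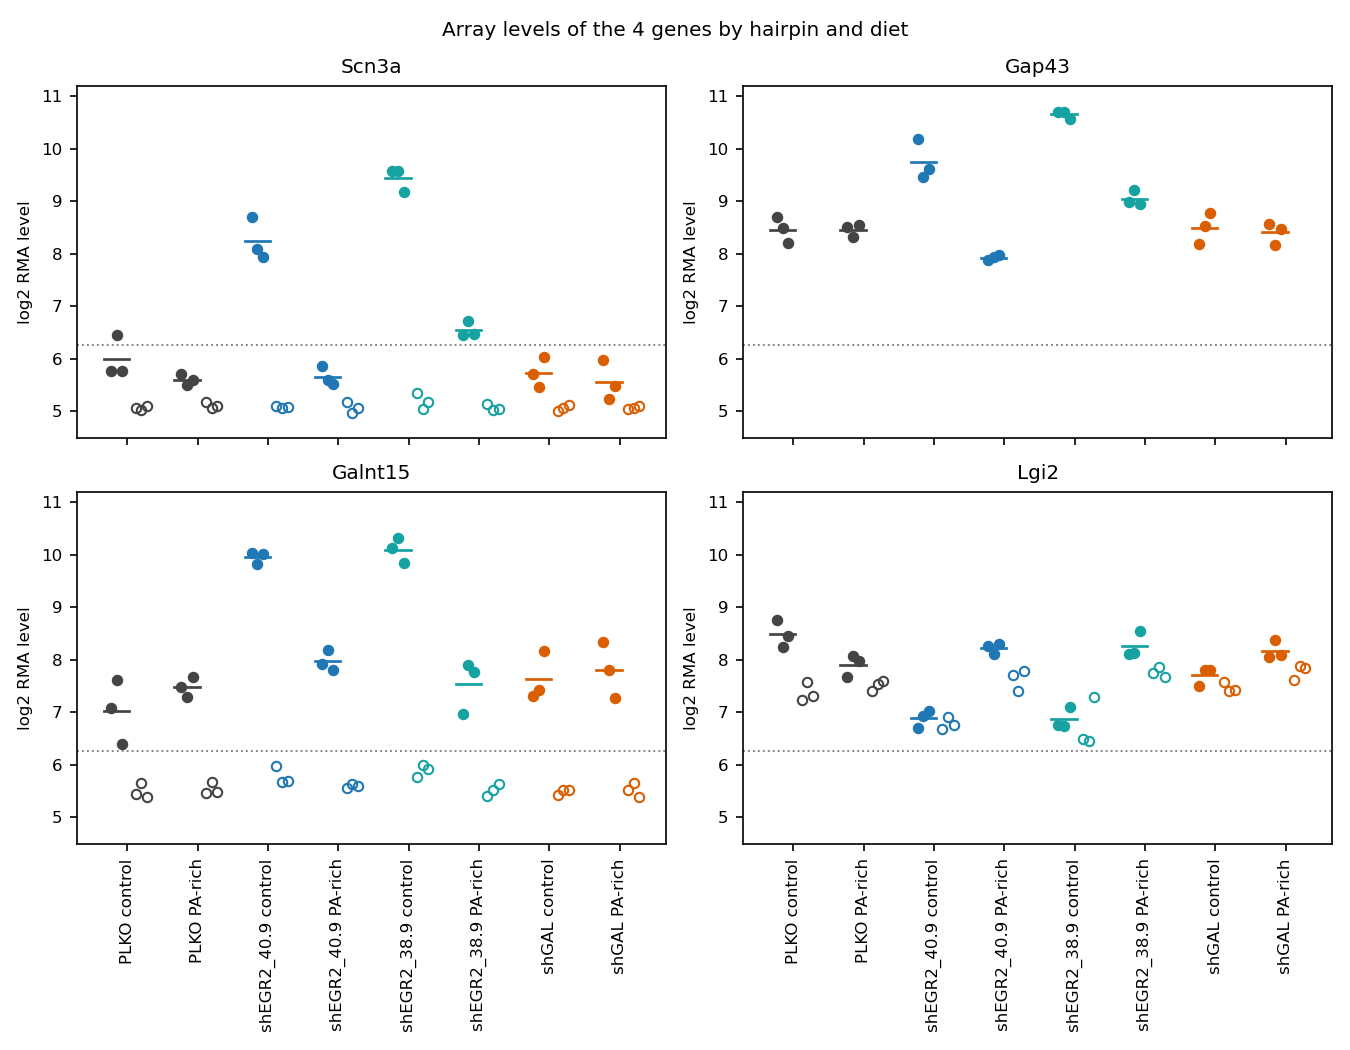
Log2 RMA level of each gene (vertical axis) on every array of the 8 groups (horizontal axis). Filled points are the probe set used with the group mean as a bar, open points the second probe set, and the dotted line the dim level of 6.27; Scn3a, Gap43 and Galnt15 stand highest and Lgi2 lowest in the control-diet groups of shEGR2_40.9 and shEGR2_38.9.

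The group means give the order of the levels. For Scn3a the order was shEGR2_38.9 control (9.44 ± 0.23; SD, n = 3), shEGR2_40.9 control (8.25 ± 0.41) and shEGR2_38.9 PA-rich (6.55 ± 0.15). The 5 groups below these had means between 5.56 and 6, and each overlapped its neighbour. For Gap43 the 3 highest groups were the same, at 10.66 ± 0.08, 9.76 ± 0.38 and 9.06 ± 0.15, without overlap between neighbours. Its PLKO and shGAL groups followed at 8.41 to 8.5 and overlapped, and shEGR2_40.9 PA-rich was last at 7.93 ± 0.05. For Galnt15 the 2 EGR2 control-diet groups overlapped at 10.1 ± 0.24 and 9.96 ± 0.11, and the other 6 groups ran from 7.03 to 7.97, each overlapping its neighbour. For Lgi2 the 2 EGR2 control-diet groups overlapped at 6.89 ± 0.16 and 6.87 ± 0.21, shGAL control came next at 7.71 ± 0.18, and the other 5 groups lay between 7.91 and 8.49.

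By size, the genes do not hold equal places in the contrast that chose them. Of 11844 kept genes, 5649 had the same sign with both EGR2 hairpins on the control diet and the opposite sign of the diet difference with both. Among the 1704 of these that were higher, Galnt15 had place 1 and Scn3a place 2, followed by Mylk at 2.19, Crispld2 at 2.17 and Adamts4 at 2.08. Gap43 had place 32 and was not among the highest. Among the 3945 that were lower, Lgi2 had place 1 at -1.61, followed by Il33 at -1.41, Plac8 at -1.39, Lor at -1.38 and Tmigd1 at -1.37. The diet difference was small with shEGR2_40.9 for the genes next to Scn3a, at -0.08 for Mylk and -0.06 for Crispld2, where Scn3a had -2.59.

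Both diets of a hairpin with the same replicate number were scanned in 1 scan batch, which gave 3 within-batch diet differences per hairpin. With the EGR2 hairpins all 6 pairs had the same sign for each gene. They ran from -3.12 to -2.42 for Scn3a, from -2.31 to -1.49 for Gap43, from -3.15 to -1.64 for Galnt15 and from 1.19 to 1.55 for Lgi2. Within the 1 batch that shEGR2_40.9 shared with PLKO, the control-diet differences were 2.94 for Scn3a, 1.49 for Gap43, 2.94 for Galnt15 and -2.05 for Lgi2. In the batch that shEGR2_38.9 shared with PLKO they were 3.13, 2.22, 2.71 and -1.51 in the same order.

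**Figure D2:**
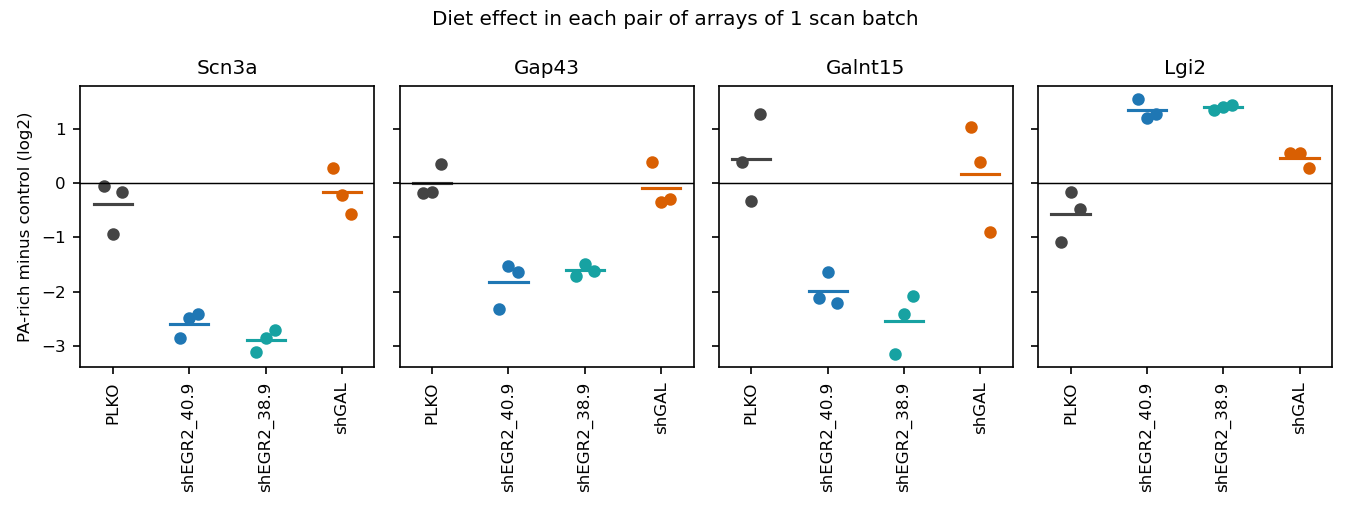
PA-rich minus control diet in log2 units (vertical axis) for the 3 pairs of arrays of each hairpin (horizontal axis), each pair within 1 scan batch; bars are means. All 6 EGR2 pairs lie at -1.49 or below for Scn3a, Gap43 and Galnt15 and at 1.19 or above for Lgi2, and the PLKO and shGAL pairs lie nearer to 0.

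Of the control-diet arrays with shEGR2_38.9, replicate 3 differed in quality from the other 23 arrays. The array's Gapdh control probe sets were 0.76 higher at the 3′ end than at the 5′ end, against -0.12 to 0.08 elsewhere. Its mean correlation with its own group was 0.978, against 0.986 to 0.996 for the rest. Without it the diet difference with shEGR2_38.9 was -3.03 for Scn3a, -1.65 for Gap43, -2.67 for Galnt15 and 1.51 for Lgi2, each slightly larger in size than with it.

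The first comparison outside the choice of the genes was the diet effect where EGR2 was not targeted. With limma 0 of the 4 passed the threshold of an adjusted p of 0.05 with PLKO, where 1.18% of all genes did, and 1 had an unadjusted p under 0.05. Lgi2 came nearest, with a diet difference of -0.58 (SE 0.15, limma adjusted p = 0.0534), lower in 3 of 3 pairs. That p lay under the threshold with scan batch as a block (adjusted p = 0.0236). It also did without PLKO control replicate 2 (difference -0.7, adjusted p = 0.034), or without shEGR2_38.9 replicate 3 on the control diet (adjusted p = 0.0312) or on the PA-rich diet (adjusted p = 0.0385). The second Lgi2 probe set gave 0.14 instead (adjusted p = 0.896). Lgi2 was chosen for a high PLKO control-diet level, and a choice of that kind favours a negative diet difference with PLKO. Its p-values here are therefore no independent support under any of these settings. Scn3a was dim on 5 of 6 PLKO arrays, so its test (adjusted p = 0.515) says nothing about a diet effect. The diet differences with PLKO were -0.0028 for Gap43 (adjusted p = 0.997) and 0.44 for Galnt15 (adjusted p = 0.619). The 95% interval of the Gap43 difference ran from -0.33 to 0.33 and that of Galnt15 from -0.14 to 1.03. The PLKO arrays of both diets also entered the choice of the genes, so this comparison is not independent of it.

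With shGAL, where 1.94% of all genes were called, 0 of the 4 passed and 1 had an unadjusted p under 0.05 in limma. Lgi2 gave a diet difference of 0.46 (SE 0.15, limma adjusted p = 0.105), higher in 3 of 3 pairs, and with array weights 0.6 (adjusted p = 0.00669). Gap43 gave -0.09 (interval -0.42 to 0.24) and Galnt15 0.17 (interval -0.41 to 0.75). Scn3a was dim on 6 of 6 shGAL arrays, so its test says nothing about a diet effect there. The limma adjusted p of these 3 ran from 0.729 to 0.827. None of the shGAL arrays entered the choice of the genes.

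The hairpin against GAL was then compared with PLKO, whose arrays of both diets also entered the choice of the genes. On the control diet Lgi2 was lower with shGAL than with PLKO by 0.77 (difference -0.77, SE 0.15, limma adjusted p = 0.000786), a 1.71-fold difference, and the arrays did not overlap. Of all genes, 17% were called in this comparison and 9.84% were called lower, so 1 of 4 called is near the background. Lgi2 was chosen for a PLKO control-diet level above that of the EGR2 hairpins, and a choice of that kind favours this direction, so the p is no independent support. The call did not extend to the second Lgi2 probe set, which read 7.25, 7.58 and 7.31 with PLKO and 7.59, 7.4 and 7.43 with shGAL, a difference of 0.1 (adjusted p = 0.792). The mean of both probe sets gave -0.34 (adjusted p = 0.0511). Gap43 gave 0.04 (adjusted p = 0.913) and Galnt15 0.6 (interval 0.02 to 1.19, adjusted p = 0.15). Without PLKO control replicate 2 the Galnt15 difference was 0.89 (adjusted p = 0.0477). On the PA-rich diet 0 of the 4 passed in limma, or had an unadjusted p under 0.05, where 12.4% of all genes passed, and their differences ran from -0.05 for Gap43 to 0.33 for Galnt15.

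The diet effect on Lgi2 differed between shGAL and PLKO by 1.03 (SE 0.21, limma adjusted p = 0.0113), since it was positive with shGAL and negative with PLKO. The PLKO control-diet arrays, high by the choice of Lgi2, enter this difference with the sign that makes it positive, so it is not independent of the choice. Of all genes 1.33% were called for this difference and 1.01% in this direction. The second probe set gave 0.17 (adjusted p = 0.79) and the mean of both 0.6 (adjusted p = 0.0695). Gap43 (-0.09) and Galnt15 (-0.27) were not called, nor was Scn3a, dim on 11 of these 12 arrays (limma adjusted p from 0.759 to 0.884).

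The 2 EGR2 hairpins were then compared with each other, on arrays whose mean level entered the choice of the genes. Scn3a passed the filter only through groups of these hairpins where it was high, so its p-values between the hairpins are no independent support. Scn3a and Gap43 were higher with shEGR2_38.9 than with shEGR2_40.9 on both diets. On the control diet Scn3a differed by 1.19 (SE 0.2, limma adjusted p = 0.000428), a 2.29-fold difference, and Gap43 by 0.9 (SE 0.16, adjusted p = 0.000571), with no overlap of arrays. Of all genes 11.9% were called here and 4.32% were called higher. Within the scan batch that both hairpins shared, the differences were 1.23 for Scn3a and 0.96 for Gap43. Without the array set apart they were 1.32 (adjusted p = 0.000561) and 0.95 (adjusted p = 0.00154).

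On the PA-rich diet Gap43 differed by 1.12 (SE 0.16, limma adjusted p = 0.000108) and Scn3a by a measured 0.89 (SE 0.2, adjusted p = 0.0108), where 5.01% of all genes were called and 2.79% were called higher. All 3 shEGR2_40.9 arrays were dim for Scn3a here, and set against 6.27 the level with shEGR2_38.9 was at least 1.21-fold higher (measured means 6.55 and 5.66). The Scn3a call was lost without shEGR2_40.9 PA-rich replicate 2 (adjusted p = 0.0508) or 3 (adjusted p = 0.0633) or shEGR2_38.9 PA-rich replicate 2 (adjusted p = 0.0677). The second Scn3a probe set gave 0.12 on the control diet (adjusted p = 0.327) and 0.0031 on the PA-rich diet (adjusted p = 0.997). Galnt15 differed by 0.13 on the control diet (interval -0.45 to 0.72) and by -0.42 on the PA-rich diet (interval -1 to 0.16). Lgi2 differed by -0.02 (interval -0.32 to 0.28) and 0.04 (interval -0.26 to 0.34). The diet effects of the 2 EGR2 hairpins were called different for 0 of the 4 in limma, also at an unadjusted p of 0.05, against 5.57% of all genes, with the widest interval for Galnt15 (-1.38 to 0.27).

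**Figure D3:**
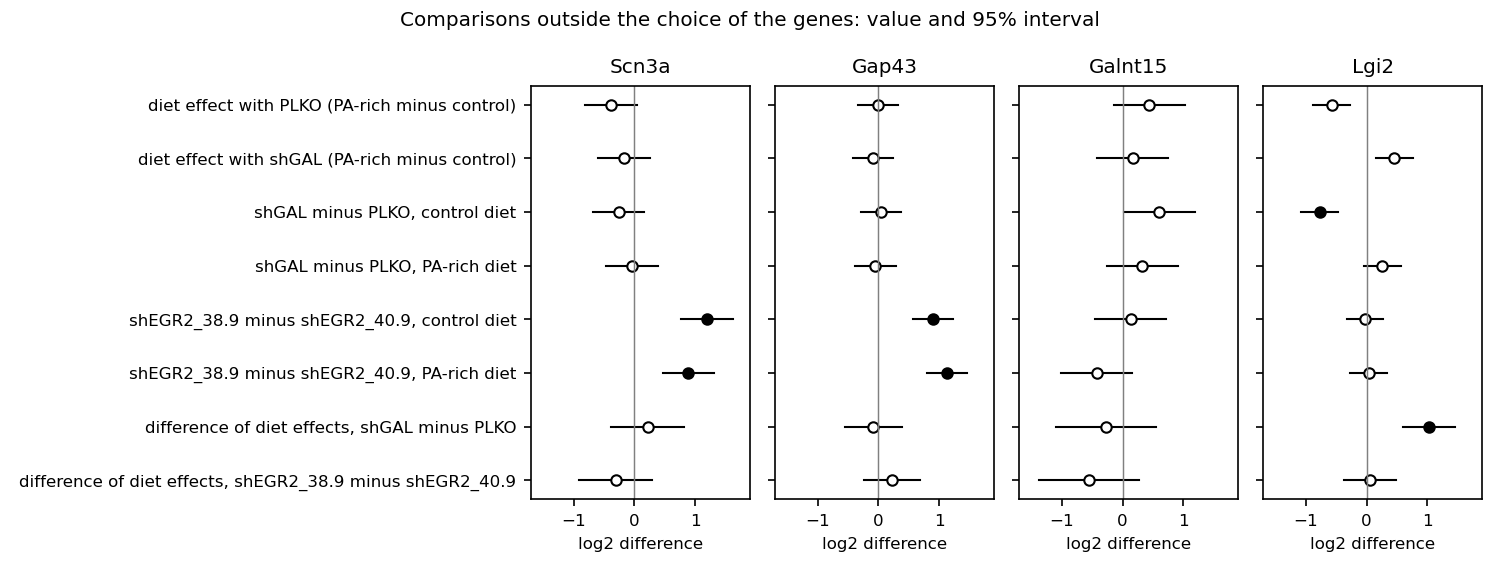
Log2 difference of each gene (horizontal axis) in the 8 comparisons that did not choose the genes (vertical axis), with 95% intervals; filled points have a limma adjusted p under 0.05 over 11844 genes. Scn3a and Gap43 are filled for shEGR2_38.9 minus shEGR2_40.9 on both diets, and Lgi2 for shGAL minus PLKO on the control diet and for the difference of diet effects of these hairpins. Every comparison with a filled point uses arrays that also entered the choice of the genes. The second probe sets of Scn3a and Lgi2 were not called where the first is filled.

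The genes were set beside markers of endothelial cells, which line blood vessels. The mean log2 level of 18 endothelial markers lay between 8.84 and 9.39 on the 6 control-diet arrays of the EGR2 hairpins and between 7.71 and 8.21 on the other 18, without overlap. Their summed linear level was 18754 to 20438 with shEGR2_40.9 and 18788 to 25097 with shEGR2_38.9 on the control diet, against 12901 to 13843 with PLKO. Of the 17 markers kept, 15 rose with EGR2 hairpins on the control diet (median 1.23, where the median of all genes was -0.06), against 25.2% of all genes called in this contrast and 10.8% called higher. In the diet contrast 13 of 17 fell with shEGR2_40.9 (median -1.02) and 14 of 17 with shEGR2_38.9 (median -1.16), where 5.22% and 8.3% of all genes were called lower. The highest endothelial difference on the control diet, 1.75 for Tie1, was close to that of Gap43. Galnt15 and Scn3a were chosen on this contrast and had places 1 and 2 of all genes in it, so every marker had to lie below them. Sox17 was below the dim level in every group. Fewer cells of a type and less RNA per cell cannot be told apart in such samples, and the part of endothelial cells in the results was not tested.

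Lymphatic endothelial markers moved in the same way, with 6 of 6 higher with EGR2 hairpins on the control diet (median 1.49), where 10.8% of all genes were called higher. With the PA-rich diet 5 of 6 fell with shEGR2_40.9 and 6 of 6 with shEGR2_38.9, where 5.22% and 8.3% of all genes were called lower. For both marker lists the rise and the falls share the control-diet arrays of the EGR2 hairpins, so they are not separate observations. Between the EGR2 hairpins on the control diet, where Scn3a and Gap43 differed, 8 of 17 endothelial and 3 of 6 lymphatic markers were higher with shEGR2_38.9, against 4.32% of all genes. In limma 0 markers of either list were lower, where 7.57% of all genes were; at an unadjusted p of 0.05, 1 endothelial and 0 lymphatic markers were. Higher markers numbered 2 of 17 and 3 of 6 on the PA-rich diet, against 2.79% of all genes. In shGAL minus PLKO on the control diet, where Lgi2 was lower by the probe set used, 5 of 6 lymphatic markers were lower (9.84% of all genes were). There 1 of 17 endothelial markers was higher (7.15% of all genes were) and 0 were lower in limma, 4 at an unadjusted p of 0.05. The part of lymphatic cells in the results was not tested.

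**Figure D4:**
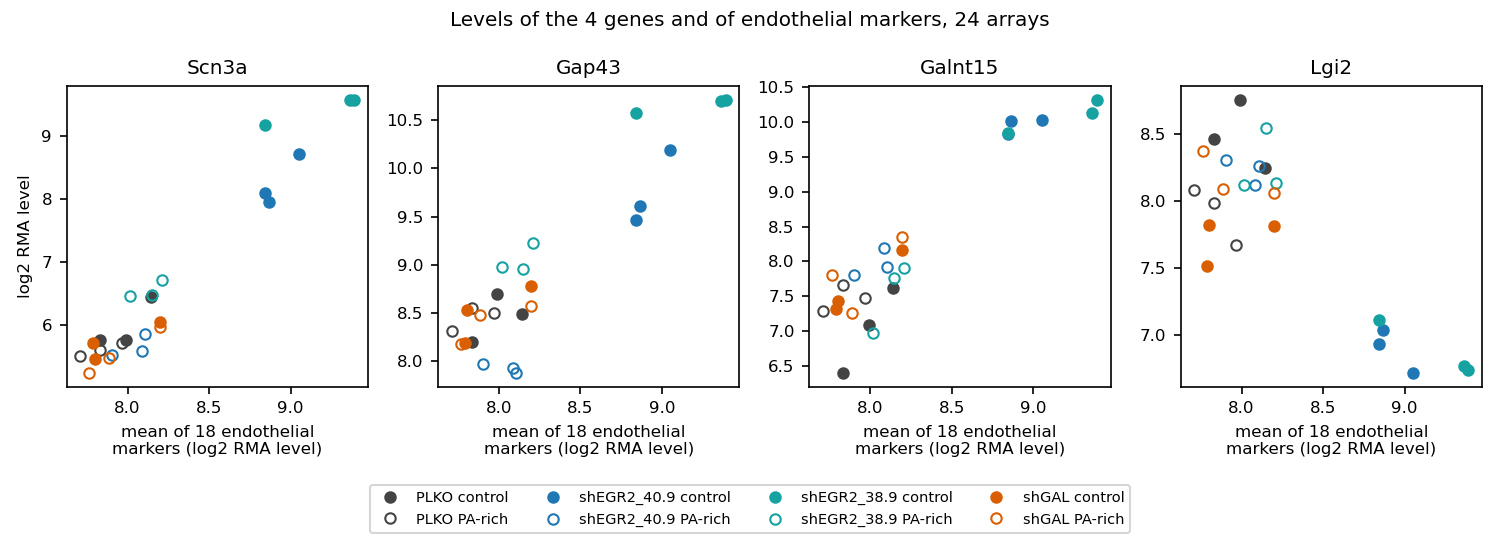
Log2 level of each gene (vertical axis) against the mean log2 level of 18 endothelial markers (horizontal axis) on the 24 arrays, filled for the control diet and open for the PA-rich diet. The 6 control-diet arrays of the EGR2 hairpins stand apart at 8.84 or more on the horizontal axis, high for Scn3a, Gap43 and Galnt15 and low for Lgi2.

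Markers of other cells the fraction could hold were also read. Of 12 neuron markers, 8 were below the dim level in every group, among them Snap25 of the synaptic vesicle machinery and Nefl of neurofilaments. The other 4, Rbfox3, Prph, Elavl3 and Tubb3, were above the dim level in every group. Of 10 Schwann cell and myelin markers, 7 were above it in every group, Sox10 and Egr2 included, and S100b, Gfap and Foxd3 were below it. Of the 7 kept, 1 was higher and 2 lower with EGR2 hairpins on the control diet. All 13 keratinocyte markers were above the dim level in every group, with 1 higher and 2 lower in that contrast. Macrophage markers had 3 of 4 kept members higher there (median 0.54), fibroblast markers 2 of 5 higher and 1 lower, and pericyte and smooth muscle markers 4 of 8 higher. Of all genes, 10.8% were called higher and 14.5% lower in that contrast. The part of these cells in the results was not tested.

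The genes most like each of the 4 were found by Pearson's r of the log2 levels over the 24 arrays. The arrays form 2 clusters for these genes, so r mainly reflects the 6 control-diet EGR2 arrays against the rest and is given with no test. Scn3a was most like Tie1, Cdh5, Mrc1, Cldn5 and Anxa6, each with r of 0.98. Tie1 encodes an endothelial receptor, Cdh5 the cadherin of endothelial junctions, Cldn5 a claudin of endothelial tight junctions and Mrc1 a mannose receptor of macrophages and lymphatic endothelium. Gap43 was most like Mrc1 (0.97), Gng11 (0.97), Gpx3 (0.97), Emid1 (0.96) and Pald1 (0.96). Mrc1 is in both lists, and its group means ran from 6.4 with shEGR2_40.9 PA-rich to 9.76 with shEGR2_38.9 control.

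Galnt15 was most like C730049O14Rik (0.96), Spsb1, Adgrf5, Rnf125 and Aqp1 (0.95 each), of which Aqp1 encodes a water channel of capillary endothelium and Adgrf5 an adhesion G protein-coupled receptor. Lgi2 was most like Urah (0.9), Tmigd1 (0.87), Meak7 (0.87), Il1rl2 (0.85) and Nsdhl (0.84). Nsdhl encodes an enzyme of cholesterol synthesis and Il1rl2 a cytokine receptor of epithelia. Without the array set apart, 3 of the 5 genes stayed on the list for Scn3a, Gap43 and Lgi2 and 2 of 5 for Galnt15.

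The relatives of each gene were read in the contrast that chose the 4, leaving the 4 out. Of the sodium channel list, which holds channel subunits, the fibroblast growth factor-like channel partners and the anchoring protein ankyrin G (Ank3), 7 genes besides Scn3a were kept. Ank3 fell by 0.33 with the EGR2 hairpins (limma adjusted p = 0.00378) and rose by 0.39 with the diet under shEGR2_38.9 (adjusted p = 0.00353). The other 6 were called in neither contrast, where 25.2% and 22.1% of all genes were called. With shEGR2_40.9 the diet contrast called 0 of the 7, against 8.95% of all genes. There 0 of the 7 had an unadjusted limma p under 0.05 too. The other 6 include Scn2a, Scn8a, Scn10a and Scn11a, all alpha subunits, and Scn2b, a beta subunit. Of 16 list genes on the array only 8 were kept, Scn3a included. Of these, Scn2a (mean 6.36) and Scn11a (mean 6.51) lay near the dim level. List genes under the filter were not tested, so the counts cannot say whether Scn3a rose alone. The median over the 7 was -0.05, against -0.06 over all genes. With scan batch as a block, or without shEGR2_40.9 control replicate 1, 2 of the 7 were called lower.

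Of the growth cone and axon regrowth list, 5 of 22 genes besides Gap43 rose in the control-diet contrast of the EGR2 hairpins and PLKO and 3 fell, where 10.8% and 14.5% of all genes did. Dpysl3 rose by 1.43, Dpysl2 by 1.12 and Crmp1 by 0.69 (limma adjusted p from 3.85e-08 to 2.02e-05), all of the collapsin response mediator family that links guidance signals to the cytoskeleton. Map1b, a microtubule-associated protein of growing axons, rose by 1.07 (adjusted p = 6.14e-05), and Marcksl1, an actin-binding substrate of protein kinase C, by 0.45. The 3 that fell were Sprr1a (-0.33), Tubb3 (-0.31) and the transcription factor gene Jun (-0.18), and 0 were called lower without PLKO control replicate 1 or without replicate 2. The median over the 22 was -0.04.

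The diet contrasts share the control-diet arrays of the EGR2 hairpins with that contrast, so their values are given side by side. For Dpysl3 they were -0.99 with shEGR2_40.9 and -1.48 with shEGR2_38.9. In the same order they were -1.17 and -1.05 for Dpysl2, -1.01 and -1.12 for Map1b, -0.41 and -0.75 for Crmp1, and -0.44 and -0.47 for Marcksl1. In all, 6 of 22 fell under each hairpin, against 5.22% and 8.3% of all genes, where Sprr1a was the sixth with shEGR2_40.9 (-0.74) and Sox11 with shEGR2_38.9 (-0.38). Sprr1a, a gene of the cornified envelope that regenerating neurons also switch on, rose by 0.92 with shEGR2_38.9, and the difference between the hairpins was 1.66 (limma adjusted p = 4.11e-06). Basp1, a growth cone membrane protein related to Gap43, rose by 0.58 with shEGR2_38.9, where 13.8% of all genes rose; the count of 2 that rose became 1 without shEGR2_38.9 control replicate 3 or PA-rich replicate 2 or 3. Between the EGR2 hairpins on the control diet, 4 of 22 were higher with shEGR2_38.9 and 2 lower, where 4.32% and 7.57% of all genes were. On the PA-rich diet 2 were higher and 1 lower, where 5.01% of all genes were called and 2.79% called higher. Crmp1 and Marcksl1 were higher on both diets, by 0.76 and 0.46 on the control diet and by 0.42 and 0.43 on the PA-rich diet (limma adjusted p from 2.22e-05 to 0.0149). Sprr1a (-1.32) and Chl1 (-0.29) were lower on the control diet and Dpysl4 (-0.34) on the PA-rich diet.

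Of the mucin-type O-glycosylation enzymes, 3 of 14 besides Galnt15 rose with the EGR2 hairpins and 3 fell, where 10.8% and 14.5% of all genes did. The sialyltransferases St6galnac4 and St3gal1 rose by 0.64 and 0.31 and Galnt18 by 0.27 (limma adjusted p from 0.000132 to 0.0212). Galnt6 fell by 0.36, Galnt7 by 0.27 and the core synthase C1galt1 by 0.27. The count that fell was 1 without PLKO control replicate 1 or 3. With the diet St6galnac4 fell by 0.68 under shEGR2_40.9 and by 0.71 under shEGR2_38.9, and St3gal1 by 0.28 under shEGR2_40.9. These made 2 falls under shEGR2_40.9, where 5.22% of all genes fell, a count that was 1 without shEGR2_40.9 control replicate 1 or 3 or PA-rich replicate 1 or 3. Galnt6 and St6galnac2 rose by 0.46 and 0.34 under shEGR2_38.9, where 13.8% of all genes rose; 1 of the list rose without control replicate 3 or PA-rich replicate 2. The largest control-diet difference of the other enzymes was 0.64. Galnt15 was chosen on that contrast and was the highest of all 11844 genes in it, so no other enzyme could reach its size.

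Of the list of LGI proteins, their ADAM receptors and the associated potassium channel complex, 5 genes besides Lgi2 were kept: Lgi4, which Schwann cells secrete for myelination, Adam11, Kcna1, Kcnab1 and Kcnab2. With limma 0 of the 5 were called with EGR2 hairpins on the control diet, also at an unadjusted p of 0.05, against 25.2% of all genes called, and their differences ran from -0.13 for Kcnab2 to 0.17 for Kcnab1. With the diet 0 were called under either EGR2 hairpin, 0 and 2 had an unadjusted limma p under 0.05 under shEGR2_40.9 and shEGR2_38.9 (8.95% and 22.1% of all genes were called), and the values ran from -0.18 for Kcna1 to 0.29 for Adam11 under shEGR2_38.9. In that contrast 1 was called higher with scan batch or the pair of arrays as a block or without shEGR2_38.9 control replicate 1 or 2, and without replicate 3 of that group 1 was called lower with the EGR2 hairpins. Lgi1, Lgi3, Adam22 and Adam23 were dim and were not tested.

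**Figure D5:**
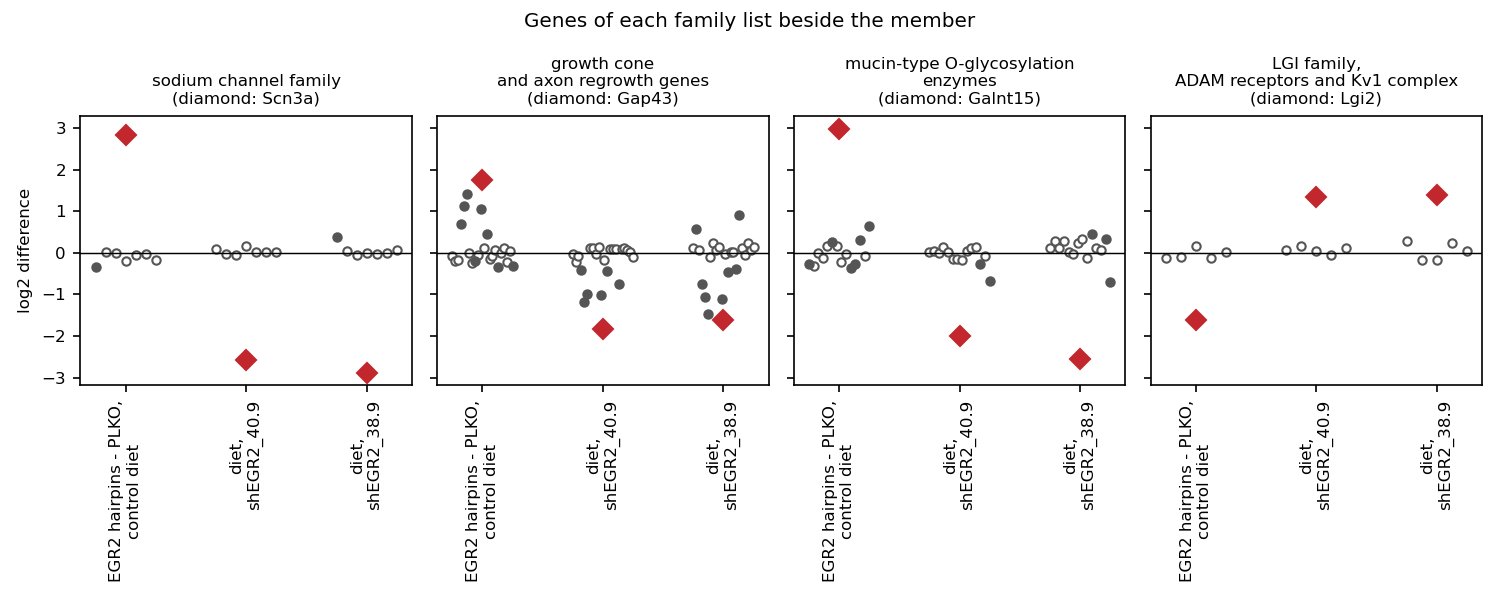
Log2 difference (vertical axis) of the genes of each list in the contrast that chose the 4 genes and in the diet contrasts of both EGR2 hairpins (horizontal axis). Circles are genes of the list, filled where the limma adjusted p was under 0.05, and the red diamond is Scn3a, Gap43, Galnt15 or Lgi2, given with no test. The diamond lies beyond all circles in every panel, a place that the choice of the 4 genes on these contrasts favours.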

How the data were processed

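Total RNA of the neural fraction had been isolated with magnetic beads, and its amplified, biotin-labelled copy was read on Affymetrix mouse arrays, per the labels' protocols. The deposited log2 values were made by the authors with RMA in the affy package (background correction, quantile normalization, summary per probe set), per the submitters' processing notes, with no version or genome build given. Of 45141 probe sets, only the 28898 naming 1 gene were used, and the RefSeq gene table held 99.28% of them. The probe set with the highest mean stood for each of 17097 genes, and the 40th percentile filter (6.27) kept 11844.

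Groups were compared with limma 3.58.1 in R 4.3.3, in 1 model of 8 group means over 24 arrays with two-sided empirical Bayes tests (16 residual and 6.21 prior degrees of freedom), adjusted by Benjamini and Hochberg over the kept genes. Changes are log2 differences with the model's SE and levels have the SD of 3 arrays; the number of arrays limits the precision. The code was tested on simulated data. The 4 genes and the 13 gene lists were chosen with earlier results of these data known. Genes named are the 4 with all their probe sets, list genes past the threshold with examples of others, the 5 most correlated with each, and the 5 highest and lowest in the contrast of the choice.

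Within a hairpin, arrays of both diets with the same number shared 1 of 6 scan batches per the labels, which pairs them. Residual correlations of same-number arrays ran from -0.03 to 0.24, with 7 of 12 above 0.1. Alternatives were scan batch as fixed or random block, the pair as a block, other filters, other probe sets or their mean, renewed quantile normalization, only the groups compared, array weights, and each array left out.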

Additional observations from a re-analysis of the deposited data

Results flagged for a closer look

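The diet effect on Lgi2 differed between the shGAL and PLKO hairpins, by a test of that difference: 1.03 on the log2 scale (SE 0.21, limma adjusted p = 0.0113). The effect was positive in 3 of 3 pairs with shGAL and negative in 3 of 3 with PLKO. The second Lgi2 probe set gave 0.17 (adjusted p = 0.79). Lgi2 was chosen for a high PLKO control-diet level, and those arrays enter this difference with the sign that makes it positive, so the test is not independent of the choice. The diet effect with shGAL alone, which uses no array of the choice, was 0.46 (adjusted p = 0.105) and was not called.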

How the results depend on the processing

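Each value of the 4 genes was recomputed under every alternative, 2216 values in all: 2130 kept their direction, call or size, 8 lost and 9 gained a call, 44 changed sign and 25 moved by more than the spread between arrays. The cause of these changes was not tested, apart from settings that change which probe sets or arrays enter. Scn3a had no value with the filter at the 50th percentile.

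The pairing by hairpin and number, as a replicate block, could be fitted for the diet contrasts and their differences and changed no call or sign of the 4 genes there. With scan batch as a replicate block the Lgi2 diet difference with PLKO stayed at -0.58 and was called (limma adjusted p = 0.0236). Values near 0 changed sign: shGAL minus PLKO on the PA-rich diet was 0.16 for Scn3a and 0.13 for Gap43, and shEGR2_38.9 minus shEGR2_40.9 on the control diet was 0.10 for Lgi2. This block left 363 genes called between the EGR2 hairpins on the PA-rich diet (593 without it) and 71 for the EGR2 hairpins minus PLKO on that diet (132 without it). With scan batch as a random block, the Lgi2 diet difference of -0.58 with PLKO was also called (adjusted p = 0.0322), and Lgi2 differed by 0.0010 between the EGR2 hairpins on the control diet. The 50th percentile filter called the same -0.58 (adjusted p = 0.0495).

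The other probe set changed most values. For Scn3a it gave diet differences of 0.050 (PLKO), 0.0067 (shGAL), -0.012 (shEGR2_40.9) and -0.12 (shEGR2_38.9), and -0.043 for the difference of diet effects of shGAL and PLKO. Against PLKO on the control diet it gave 0.075 for the EGR2 hairpins, 0.017 for shEGR2_40.9 and 0.13 for shEGR2_38.9, and on the PA-rich diet -0.043 for the mean and -0.041 for shEGR2_38.9. Between the EGR2 hairpins it gave 0.12 and 0.0031. For Galnt15 it gave -0.0023 and -0.019 for shGAL minus PLKO on the control and PA-rich diet, 0.34, 0.29 and 0.40 for the EGR2 mean, shEGR2_40.9 and shEGR2_38.9 minus PLKO on the control diet, 0.051 for shEGR2_40.9 minus PLKO on the PA-rich diet, and diet differences of -0.19 and -0.37. For Lgi2 it gave 0.14 for the diet with PLKO, 0.097 for shGAL minus PLKO on the control diet, 0.17 for the difference of diet effects, -0.61, -0.59 and -0.64 against PLKO, and diet differences of 0.84 and 1.02. With the mean of probe sets, Galnt15 had 1.67, 1.61 and 1.73 against PLKO and diet differences of -1.09 and -1.46. Lgi2 then had -1.11, -1.09 and -1.13 against PLKO, a diet difference of 1.09 with shEGR2_40.9, -0.34 for shGAL minus PLKO on the control diet and 0.60 for the difference of diet effects. That setting called 384 genes for the diet with shGAL (230 before) and 205 for the EGR2 hairpins minus PLKO on the PA-rich diet.

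Renewed quantile normalization gave 0.023 for Gap43 with the diet and PLKO. Array weights gave Gap43 0.046 there, 0.12 for the diet with shGAL, -0.13 for shGAL minus PLKO on the control diet and 0.073 for the difference of diet effects, with 0.026 for Scn3a in shGAL minus PLKO on the PA-rich diet and 0.0100 for Galnt15 in the difference of diet effects. They called Lgi2 with the diet under PLKO (-0.55, adjusted p = 0.0364) and shGAL (0.60, adjusted p = 0.00669). Counts of genes called with weights were 343 for the diet with PLKO (140 before), 1057 with shGAL and 2128 with shEGR2_40.9 (1060 before), 3367 and 2885 for shGAL minus PLKO on the control and PA-rich diet (2013 and 1465 before), 2055 between the EGR2 hairpins and 867 for these minus PLKO on the PA-rich diet, and 776 and 1294 for the differences of diet effects of shGAL and PLKO (158 before) and of the EGR2 hairpins (660 before). Fitting only the groups compared called 70 genes for the diet with PLKO, 47 with shGAL and 1295 with shEGR2_38.9 (2623 before), 1202 for shGAL minus PLKO on the control diet, 299 and 1523 between the EGR2 hairpins on the control (1408 before) and PA-rich diet, 105 and 431 for the differences of diet effects, and 1550 (2987 before) and 595 for the EGR2 hairpins minus PLKO.

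Leaving out each array in turn gave these ranges. For the diet with PLKO they were -0.13 to 0.12 for Gap43, -0.70 to -0.44 for Lgi2 and 56 to 269 genes called. For the diet with shGAL they were -0.25 to 0.048 for Gap43, -0.10 to 0.44 for Galnt15 and 59 to 528 genes. For shGAL minus PLKO they were -0.10 to 0.19 for Gap43 and 0.28 to 0.89 for Galnt15 on the control diet, and -0.25 to 0.12 for Scn3a, -0.13 to 0.066 for Gap43 and 968 to 2097 genes on the PA-rich diet. For the difference of these diet effects they were -0.0081 to 0.38 for Scn3a, -0.24 to 0.050 for Gap43, -0.56 to 0.044 for Galnt15 and 82 to 343 genes. Between the EGR2 hairpins they were -0.14 to 0.048 for Lgi2 and 822 to 1810 genes on the control diet, and 0.80 to 0.99 for Scn3a, -0.10 to 0.11 for Lgi2 and 302 to 928 genes on the PA-rich diet, with -0.081 to 0.18 for Lgi2 in the difference of diet effects. The EGR2 hairpins minus PLKO on the PA-rich diet had 59 to 257 genes called, and the diet with shEGR2_40.9 had 689 to 1534. The Lgi2 diet difference with PLKO was called without PLKO control replicate 2, or without replicate 3 of shEGR2_38.9 on either diet.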
